A study of Mus musculus with 9 samples.

Results

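Collagen genes were described across 3 groups of mouse hearts profiled by RNA-seq. The members were all genes whose mouse symbol, looked up from the Entrez gene ID in the files, had the form Col, number, a, number. This rule found 42 genes among the 16873 in the files. The RefSeq gene table holds 44 such symbols, and the remaining ones, Col6a4 and Col9a1, were not analysed here. By textbook class the 42 genes comprised 11 fibrillar chains, 16 network-forming chains, 8 FACIT chains, 2 multiplexins, 4 transmembrane chains and Col26a1. Cutting across these classes, 6 measured genes encode chains best known from cartilage: Col2a1, Col9a2, Col9a3, Col10a1, Col11a1 and Col11a2.

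Each of the 3 groups had 3 heart libraries: wild-type (WT) with saline, WT with doxorubicin (DOX), and Sting-/- with DOX. Doxorubicin is an anthracycline chemotherapy drug whose use is limited by damage to the heart, and Sting is the adaptor that relays the signal of the cytosolic DNA sensor cGAS. The series' design text describes low-dose treatment as a model of chronic doxorubicin cardiotoxicity. The labels of these libraries give neither dose, duration, age nor sex, and do not describe the Sting allele. Nor do they state whether each library is a different mouse, so the p-values reflect only the variation among these libraries, which may be technical. Sting-/- hearts without DOX were not analysed here, so a genotype difference present without the drug cannot be told apart from one that appears with it.

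Collagens are secreted proteins in which 3 chains wind into a helix. Fibrillar collagens such as types I and III pack into the cross-striated fibres that give the heart wall its tensile strength, with types V and XI setting fibre diameter. Type IV forms the sheet of basement membranes around vessels and cardiomyocytes, type VI forms beaded filaments beside them, and FACIT collagens sit on the surface of fibrils. In the heart, fibroblasts make most fibrillar collagen, and its build-up is called fibrosis.

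Sting1, the targeted gene, was listed at 5.10, 5.43 and 5.93 FPKM, a level scaled by transcript length and by library size, in the saline libraries. It was listed at 17.5, 18.0 and 17.8 FPKM in WT DOX and at 0.06, 0 and 0 in Sting-/- DOX, as the genotype labels say. Estimated depth was about 11300000 to 11400000 fragments in saline, 13000000 to 13200000 for WT DOX, and 8000000 to 8300000 for Sting-/- DOX. Fold changes are differences in log2(FPKM + 1), which understate the change of low genes, and a gene is called higher or lower at an adjusted p under 0.05 (limma, Benjamini-Hochberg). Their median over all 12485 genes tested was not 0 but 0.13 for WT DOX against saline, 0.25 for Sting-/- DOX against WT DOX and 0.49 for Sting-/- DOX against saline. Cardiomyocyte markers were measured for all 15 genes of the list, and their summed level was 81651 to 83133 FPKM in saline, 52706 to 56013 under WT DOX, and 11489 to 12071 under Sting-/- DOX. Between the DOX groups all 15 were called lower, against 29.7% of all genes, with a median log2 fold change of -2.07 over the list. In bulk tissue, fewer cells of a type and less RNA per cell cannot be told apart, and the part of this shift in the collagen results was not tested.

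Collagen mRNA made up a larger share of the library in each DOX group than in saline. The 42 genes together held 0.0613%, 0.0690% and 0.0658% of the summed FPKM in the saline libraries. They held 0.181%, 0.194% and 0.188% in WT DOX and 1.34%, 1.27% and 1.27% in Sting-/- DOX. No library of one group overlapped another group, and the means were 0.0654% ± 0.00388, 0.188% ± 0.00658 and 1.30% ± 0.0414 (SD, n = 3 each). In each of the 3 comparisons the exact two-sided permutation test gave p = 0.1, the smallest that 3 against 3 allows.

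Of the 42 genes, 26 reached the mean of 1 FPKM over all libraries required for the fit, and 6 of these did so only through the Sting-/- libraries: Col2a1, Col8a2, Col9a2, Col11a1, Col11a2 and Col20a1. Those 6 had to differ between the DOX groups, so counts are also given over the 20 genes whose saline or WT DOX mean was at least 1 FPKM. The members just below the threshold were Col28a1 at 0.616, Col4a3 at 0.709 and Col7a1 at 0.817 FPKM. Those just above it were Col4a4 at 1.23, Col20a1 at 1.28 and Col2a1 at 1.32 FPKM.

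Between WT DOX and saline, 19 collagen genes were called higher and 1, Col4a4, lower, and all of these were among the 20. Of the 20, Col12a1 and Col27a1 entered through their WT DOX mean alone, so the filter favoured their higher calls. Over the 18 genes with a saline mean of at least 1 FPKM, 17 were called higher and 1 lower (median 1.17). Over all genes tested, 45.3% were called higher and 21.5% lower. The median log2 fold change was 1.17 over the 20 genes and 0.82 over the 26. By raw ranges, the WT DOX libraries lay entirely above saline for 21 of the 42 genes and entirely below for 6, against 39.5% and 19.8% of all genes. Higher calls were 67.8% of all calls over all genes as deposited, but 40.9% after median-ratio scaling and 39.9% after quantile normalization. With these scalings 19 collagen genes were again called higher and the median over the tested collagens was 0.60 and 0.58.

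Between Sting-/- DOX and WT DOX, 25 collagen genes were called higher and none lower, and the exception was Col4a5. Among the 20 genes 19 were called higher with a median log2 fold change of 1.91, beside a background of 54.1% called higher and 29.7% called lower over all genes. At an unadjusted p under 0.05 limma also gave 0 collagen genes lower. By raw ranges, 38 of 42 genes lay entirely above WT DOX and none entirely below, against 48.7% and 24.4% of all genes. Higher calls were 64.6% of all calls as deposited, 46.3% after median-ratio scaling and 50.9% after quantile normalization, and under both of the latter 25 collagen genes were called higher and 1, Col4a5, lower. This comparison shares the WT DOX libraries with the preceding one, so the counts of both are not independent.

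Between Sting-/- DOX and saline, which differ in both genotype and drug, 25 genes were called higher, against 63.0% of all genes, and none lower (0 also at an unadjusted p under 0.05 in limma), against 25.9%. The exception was Col4a4. Of the 25, 6 passed the filter only through the Sting-/- libraries, so the filter favoured their higher calls. Among the 20 genes 19 were called higher and 0 lower, with a median log2 fold change of 2.84. By raw ranges 35 of the 42 genes lay above saline and 1, Col6a6, below, against 56.4% and 21.2% of all genes. Higher calls were 70.9% of all calls as deposited, 48.5% after median-ratio scaling and 51.1% after quantile normalization. The corresponding collagen counts were 24 and 23 called higher, with Col4a4 called lower under both.

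**Figure D1:**
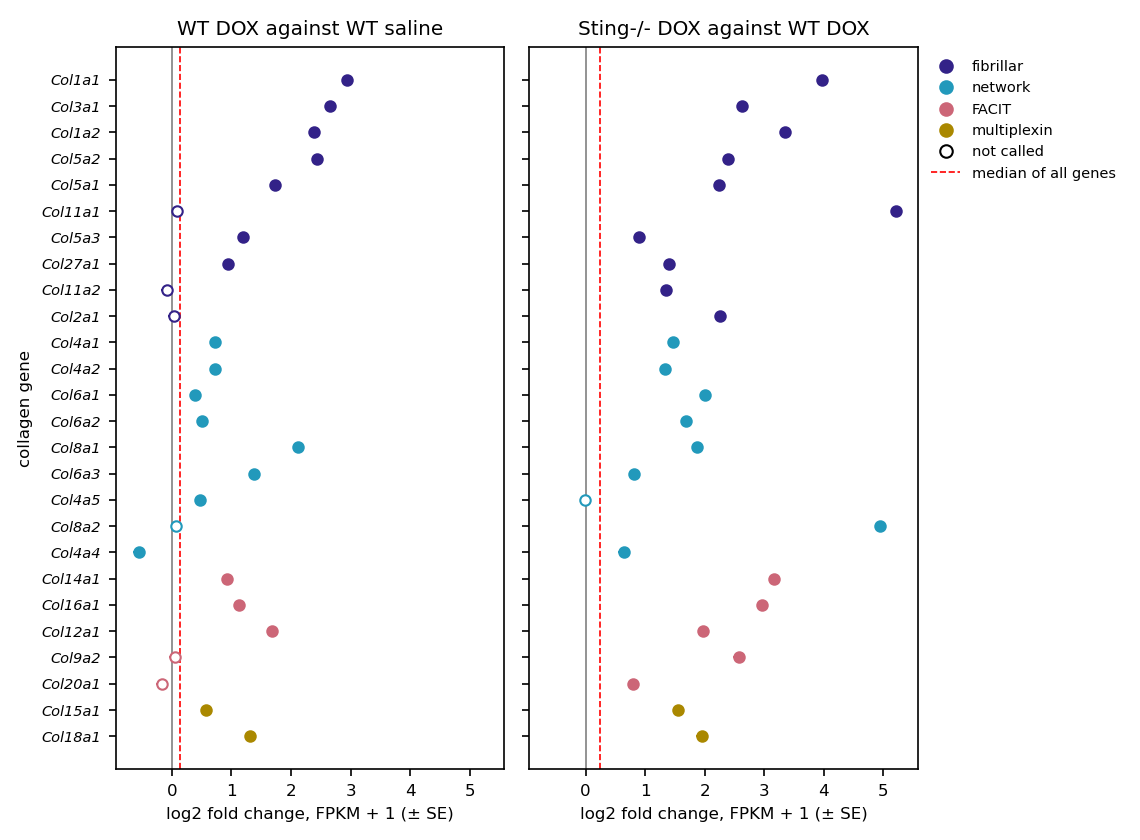
Log2 fold change of FPKM + 1 (x axis) for the 26 tested collagen genes (y axis, coloured by class), WT DOX against saline on the left and Sting-/- DOX against WT DOX on the right. Points carry standard errors smaller than most symbols, open points were not called, and the dashed line is the median of all genes (0.13 and 0.25). Genes range from -0.55 to 2.94 on the left and from -0.01 to 5.21 on the right.

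In both DOX groups the fibrillar class had the largest summed level of the classes, while in saline the network class did. Col1a1, the more abundant chain of type I collagen in its usual trimer, was listed at 15.1, 16.1 and 15.6 FPKM in saline, 125, 127 and 126 in WT DOX, and 2059, 1942 and 1962 in Sting-/- DOX. Its partner Col1a2 was listed at 25.6, 27.0 and 27.0 FPKM in saline, 138, 143 and 146 in WT DOX, and 1516, 1435 and 1438 in Sting-/- DOX. For both chains every WT DOX library lay above every saline library and every Sting-/- library above every WT DOX library. The log2 fold change of Col1a1 was 2.94 ± 0.037 (SE) for WT DOX against saline and 3.97 ± 0.037 for Sting-/- DOX against WT DOX, with limma adjusted p of 1.45e-13 and 1.03e-14. That of Col1a2 was 2.38 ± 0.038 and then 3.35 ± 0.038 (limma adjusted p = 7.14e-13 and 1.99e-14).

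Col3a1, whose type III fibres are more pliable and lie beside type I in the heart, was listed at 42.6, 45.3 and 44.0 FPKM in saline, 273, 293 and 285 in WT DOX, and 1814, 1736 and 1705 in Sting-/- DOX. It was the most abundant collagen transcript per length in WT DOX and ranked below Col1a1 in Sting-/- DOX. Its log2 fold change was 2.66 ± 0.039 and then 2.62 ± 0.039 (SE; limma adjusted p = 4.31e-13 and 7.85e-14). Col5a2, a chain of the type V collagen that nucleates fibrils, was listed at 5.96, 6.99 and 6.51 FPKM in saline, 36.3, 41.7 and 39.6 in WT DOX, and 221, 205 and 204 in Sting-/- DOX. Its groups did not overlap, with log2 fold changes of 2.43 ± 0.063 and 2.39 ± 0.063.

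The other type V chains rose as well, Col5a1 from a mean of 6.53 FPKM in saline to 24.1 and 117.8, and Col5a3 from 4.0 to 10.5 and 20.2. Col27a1, another fibrillar chain, rose from 0.977 to 2.82 and 9.02 FPKM. All 3 were called higher in both comparisons, and Col5a3 moved least between the DOX groups among them, with a log2 fold change of 0.89 ± 0.066 (SE). Col24a1, which did not reach the filter, was listed at 0.0333 FPKM on average in saline, 0.0933 in WT DOX and 1.54 in Sting-/- DOX. Over the 7 fibrillar genes with a saline or WT DOX mean of at least 1 FPKM, 7 were called higher in WT DOX than saline (median 2.38, against 45.3% of all genes called higher). The same number were called higher in Sting-/- DOX than WT DOX (median 2.39, against 54.1% of all genes). Col27a1 was among the 7 through its WT DOX mean alone. Summed levels of activated fibroblast markers are set beside these values. Those of the 7-gene list, which holds Postn and Cthrc1, were 129.4 to 172.4 FPKM in saline, 355.8 to 373.6 with WT DOX, and 2639 to 2828 with Sting-/- DOX. In this list Postn averaged 20.5, 180.0 and 1424.4 FPKM, and Acta2 105.6, 103.2 and 400.8. Of the 7 genes 6 were called higher in WT DOX than saline, Acta2 being the exception (-0.03), and 7 in Sting-/- DOX than WT DOX. The background was 45.3% and 54.1%. Cthrc1 and Ltbp2 averaged 0.367 and 0.41 FPKM in saline, so the filter favoured their higher calls against saline. General fibroblast markers without collagens summed to 1006 to 1038, 890.9 to 901.0 and 2197 to 2266 FPKM. The lower sum in WT DOX than saline came with Gsn, which averaged 431.9 and 234.4 FPKM there. Of the 11 genes 6 were called higher and 2 lower (median 0.25), shares near the background of 45.3% and 21.5% of all genes. The part of either list in the fibrillar values was not tested.

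**Figure D2:**
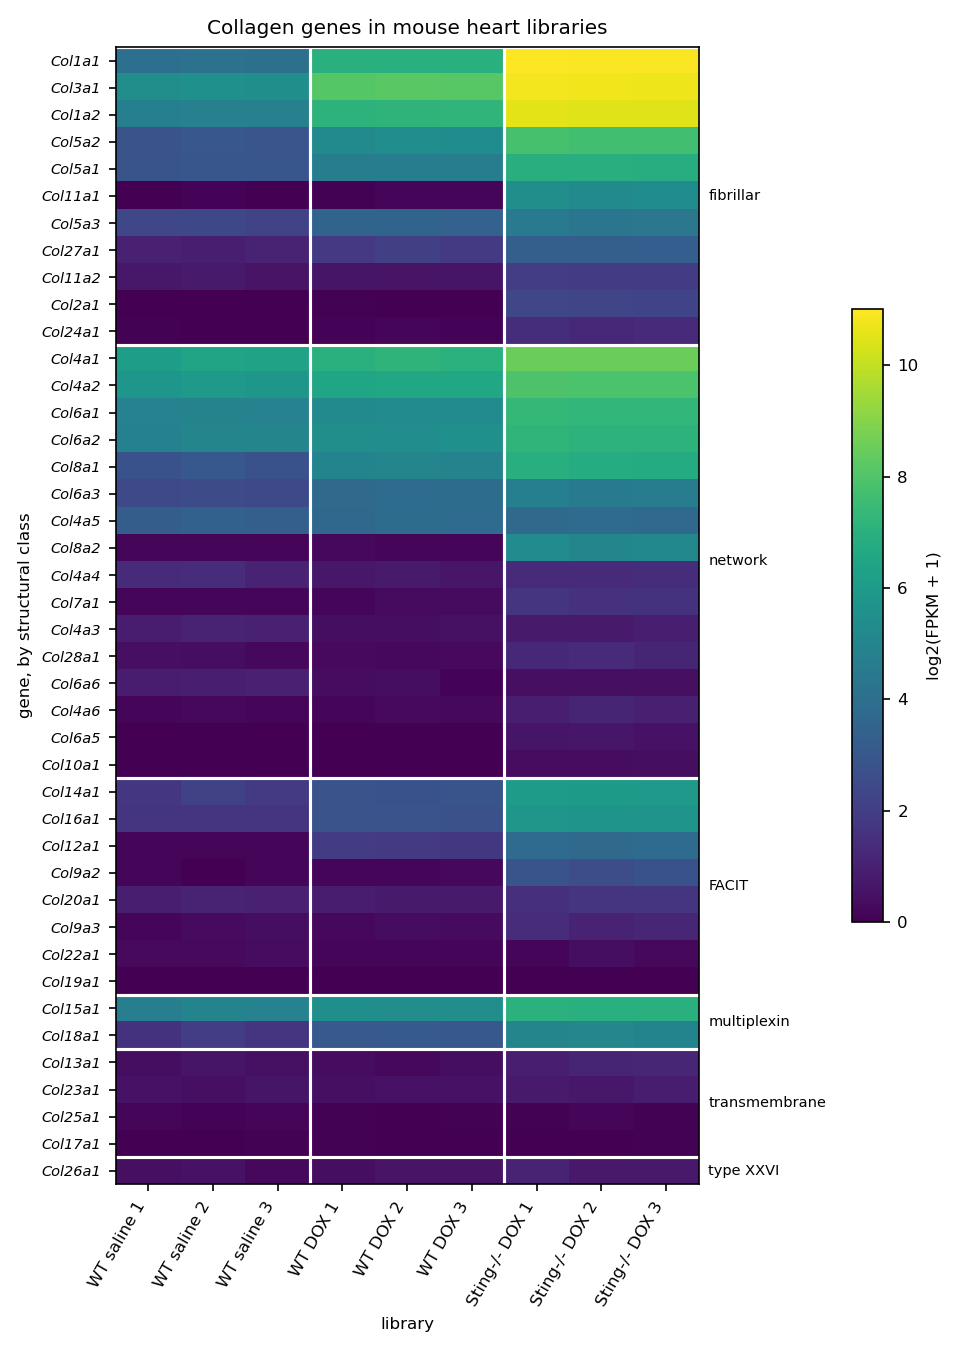
Levels of all 42 collagen genes (y axis, by class) in the 9 libraries (x axis), coloured by log2(FPKM + 1). Col1a1, Col1a2 and Col3a1 are brightest in the 3 Sting-/- DOX libraries, and Col11a1, Col2a1 and Col8a2 are dark in all 6 WT libraries.

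Promoter windows are printed for Col1a2 and Col3a1, high in DOX-treated hearts of both genotypes, and for Col8a2 and Col11a1, near 0 in both WT groups and high in Sting-/- DOX. Each holds the 250 bases before the annotated start, from RefSeq on GRCm38.p6, 5′ to 3′ on the gene's strand, with capitals marking the CCAAT box (spelled CCAAT), the GC box (spelled GGGCGG) and the TATA box (spelled TATAAA) on either strand.
Col1a2 (chr6:4505368-4505617, plus strand): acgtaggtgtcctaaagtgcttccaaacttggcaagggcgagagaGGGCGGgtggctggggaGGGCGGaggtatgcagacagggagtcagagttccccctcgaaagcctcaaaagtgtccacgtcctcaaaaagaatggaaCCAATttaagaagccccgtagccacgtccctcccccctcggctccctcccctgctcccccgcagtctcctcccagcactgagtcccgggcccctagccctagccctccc
Col3a1 (chr1:45311288-45311537, plus strand): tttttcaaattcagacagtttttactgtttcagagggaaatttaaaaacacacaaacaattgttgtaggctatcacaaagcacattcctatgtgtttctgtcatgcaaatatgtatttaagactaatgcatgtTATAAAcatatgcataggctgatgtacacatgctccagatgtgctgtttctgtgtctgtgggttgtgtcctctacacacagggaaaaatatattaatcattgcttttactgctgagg
Col8a2 (chr4:126286544-126286793, plus strand): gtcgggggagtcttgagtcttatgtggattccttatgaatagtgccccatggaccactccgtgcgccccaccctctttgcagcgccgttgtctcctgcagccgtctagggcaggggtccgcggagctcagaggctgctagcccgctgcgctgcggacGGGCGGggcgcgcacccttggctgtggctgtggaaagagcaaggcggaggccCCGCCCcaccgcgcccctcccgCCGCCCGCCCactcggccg
Col11a1 (chr3:114030290-114030539, plus strand): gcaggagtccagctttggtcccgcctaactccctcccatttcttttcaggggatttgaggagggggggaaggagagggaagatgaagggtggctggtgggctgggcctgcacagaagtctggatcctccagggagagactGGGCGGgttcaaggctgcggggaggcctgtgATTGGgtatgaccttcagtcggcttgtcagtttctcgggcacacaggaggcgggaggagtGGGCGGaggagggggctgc
The Col1a2 window held a CCAAT box 109 to 105 bases before the start and GC boxes at 2 places. Col3a1 held a TATA box 117 to 112 bases before the start and neither other motif. Col8a2 held GC boxes at 4 places, 3 of them on the opposite strand the nearest ones, at 19 to 14 and 15 to 10 bases before the start, overlapping. Col11a1 held GC boxes at 2 places and a CCAAT box on the opposite strand at 79 to 75 bases. Across 35 windows of 33 collagen genes, 11 held a CCAAT box, 21 a GC box and 5 a TATA box, against 33.8%, 32.7% and 12.4% of all 32851 windows of that length. These are letter matches in a fixed window and say nothing of factor binding. The table held no window for Col1a1.

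The make-up of collagen mRNA differed between groups as well as its amount. Fibrillar chains held 29.0% ± 0.747 of the summed collagen FPKM in saline, 59.2% ± 0.155 in WT DOX and 80.1% ± 0.164 in Sting-/- DOX (SD, n = 3 each). Network chains held 60.4%, 34.5% and 15.7% in the same order. FACIT chains stayed between 1.45% and 2.0% in every library, and multiplexins held 8.41%, 4.70% and 2.27% on average. Col1a1, Col1a2 and Col3a1 alone held 23.8%, 52.0% and 74.3%. In level, the network chains summed to 218.8 ± 13.6 FPKM in saline, 366.0 ± 12.4 in WT DOX and 1098 ± 21.3 in Sting-/- DOX. So the smaller share of network chains stood beside a higher level.

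**Figure D3:**
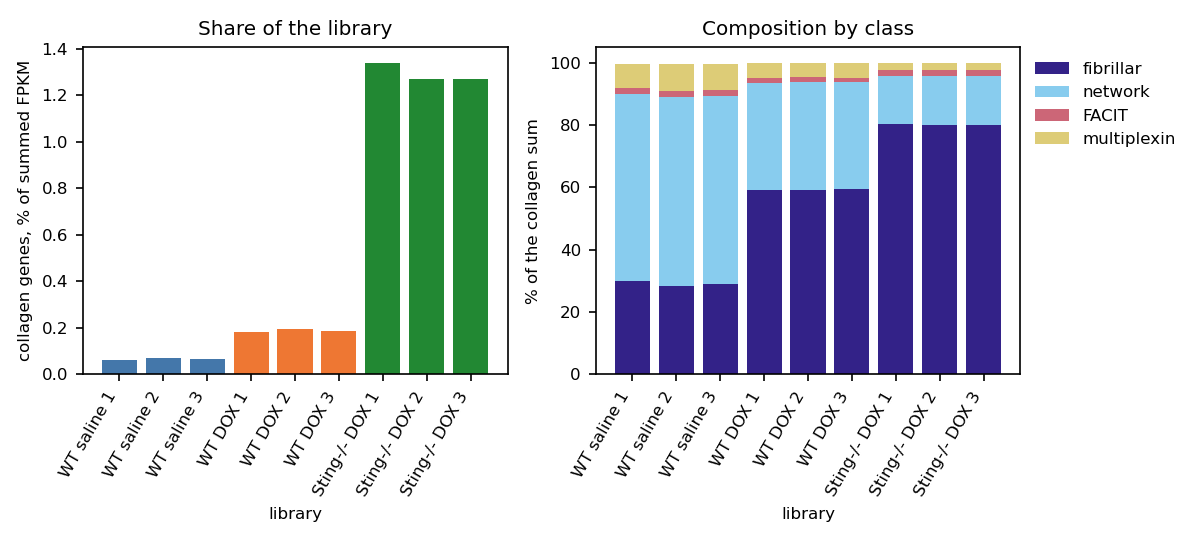
Left, percent of the summed FPKM held by the 42 collagen genes in each library, from 0.0613 in saline to 1.34 in Sting-/- DOX. Right, percent of the collagen sum held by each class in the same libraries (the transmembrane chains and Col26a1, too low to see, are left out), with the fibrillar part between 28.3 and 29.8 in saline and between 79.9 and 80.2 in Sting-/- DOX.

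Over the 8 network genes with a saline or WT DOX mean of at least 1 FPKM, 7 were called higher and 1 lower between WT DOX and saline, against 45.3% and 21.5% of all genes. Sting-/- DOX had 7 of the 8 called higher than WT DOX, against 54.1% of all genes. Among the basement membrane chains, Col4a1 and Col4a2 code for the partners of the ubiquitous type IV trimer. Col4a1 was listed at 71.8, 85.9 and 81.1 FPKM in saline, 125, 142 and 131 in WT DOX, and 367, 369 and 369 in Sting-/- DOX. Col4a2 was listed at 53.9, 59.6 and 56.2 FPKM in saline, 91.2, 96.3 and 93.2 in WT DOX, and 242, 236 and 237 in Sting-/- DOX. The groups did not overlap for either chain. Col4a1 had log2 fold changes of 0.73 ± 0.062 and 1.47 ± 0.062 and Col4a2 of 0.72 ± 0.042 and 1.34 ± 0.042, all called. These genes lie head to head with starts 21 bases apart and overlap each other, so without stated strand information their reads cannot be fully separated. Endothelial markers, from cells that lay down this membrane, were called higher between the DOX groups in 11 of 11 genes (54.1% over all genes), with summed levels of 358.3 to 369.2, 347.8 to 357.0 and 1467 to 1567 FPKM, and their part in the type IV values was not tested.

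The remaining type IV chains were lower in level. Col4a5 was listed at 8.62, 9.68 and 9.22 FPKM in saline, 12.2, 13.9 and 13.2 in WT DOX, and 13.2, 13.3 and 12.4 in Sting-/- DOX. The WT DOX libraries lay above saline (log2 fold change 0.47 ± 0.062, limma adjusted p = 3.28e-05), while the DOX groups overlapped (-0.01 ± 0.062, adjusted p = 0.847). Median-ratio scaling and quantile normalization put Col4a5 below WT DOX in Sting-/- DOX, at -0.33 and -0.25. Col4a4, found in specialised membranes with Col4a3 and Col4a5, was listed at 1.54, 1.61 and 1.16 FPKM in saline, 0.64, 0.74 and 0.61 in WT DOX, and 1.49, 1.55 and 1.73 in Sting-/- DOX. Its WT DOX libraries lay below every other library, with log2 fold changes of -0.55 ± 0.097 (limma adjusted p = 0.000344) and then 0.64 ± 0.097 (limma adjusted p = 5.78e-05). The neighbouring Col4a3, which overlaps Col4a4 and did not reach the filter, had means of 0.990, 0.350 and 0.787 FPKM. Col4a6 had means of 0.153, 0.170 and 1.02 FPKM.

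Type VI collagen links basement membranes to the surrounding matrix. Col6a1 was listed at 28.7, 29.4 and 28.5 FPKM in saline, 37.1, 38.9 and 38.8 in WT DOX, and 160, 157 and 155 in Sting-/- DOX. Col6a2 was listed at 27.6, 30.9 and 30.8 FPKM in saline, 42.9, 40.9 and 45.02 in WT DOX, and 148, 136 and 136 in Sting-/- DOX. Both were called higher in both comparisons, and no group overlapped another. The third chain, Col6a3, was listed at 4.46, 4.68 and 4.41 FPKM in saline, 13.0, 13.2 and 13.8 in WT DOX, and 25.7, 23.2 and 23.7 in Sting-/- DOX. Its log2 fold change was 1.38 ± 0.054 between WT DOX and saline, where Col6a1 had 0.39 ± 0.037 and Col6a2 0.51 ± 0.056. Between the DOX groups the order was the opposite, 0.81 ± 0.054 for Col6a3 against 2.01 ± 0.037 for Col6a1 and 1.68 ± 0.056 for Col6a2. Col6a5 was at most 0.01 FPKM in the WT libraries and 0.46 to 0.58 in Sting-/- DOX, and Col6a6 averaged 0.893, 0.237 and 0.353 FPKM.

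The short-chain network collagens form hexagonal lattices. Col8a1 was listed at 5.76, 7.17 and 5.88 FPKM in saline, 30.2, 31.2 and 29.6 in WT DOX, and 120, 112 and 108 in Sting-/- DOX, so no group overlapped another. Its log2 fold changes were 2.11 ± 0.070 and 1.87 ± 0.070. Col8a2, the other type VIII chain, was listed at 0.10, 0.12 and 0.10 FPKM in saline, 0.19, 0.13 and 0.16 in WT DOX, and 38.3, 32.3 and 34.3 in Sting-/- DOX. All 6 WT libraries were below 0.2 FPKM and all 3 Sting-/- libraries above 32, with log2 differences of 0.07 and 4.95, given without a test because the gene passed the filter only through the Sting-/- libraries. Col7a1, the anchoring fibril chain, averaged 0.130, 0.213 and 2.11 FPKM, and Col28a1 0.293, 0.203 and 1.35.

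Of the FACIT chains on fibril surfaces, 3 had a saline or WT DOX mean of at least 1 FPKM, and these 3 were called higher in both comparisons, against 45.3% of all genes between WT DOX and saline and 54.1% between the DOX groups. Col12a1 was among the 3 through its WT DOX mean alone. Col14a1 was listed at 2.30, 3.32 and 2.68 FPKM in saline, 6.12, 5.78 and 6.29 in WT DOX, and 65.4, 62.3 and 59.4 in Sting-/- DOX. Col16a1 was listed at 2.16, 2.13 and 2.11 FPKM in saline, 5.96, 6.08 and 5.58 in WT DOX, and 56.3, 51.0 and 50.8 in Sting-/- DOX. Both groups of DOX libraries stood above saline, with log2 fold changes between the DOX groups of 3.17 ± 0.086 and 2.96 ± 0.057. Col12a1, often found in tissues under tension, was listed at 0.13, 0.12 and 0.16 FPKM in saline, 2.76, 2.69 and 2.47 in WT DOX, and 13.5, 12.8 and 13.4 in Sting-/- DOX. Its log2 fold change was 1.68 ± 0.068 and then 1.97 ± 0.068, again without overlap between groups. Col20a1 averaged 0.990, 0.767 and 2.09 FPKM, Col22a1 0.237, 0.113 and 0.220, and Col19a1 at most 0.01 in all groups.

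Multiplexins sit in vascular and epithelial basement membranes and release antiangiogenic fragments. Col15a1 was listed at 24.99, 30.6 and 28.8 FPKM in saline, 43.4, 41.4 and 42.5 in WT DOX, and 130, 125 and 127 in Sting-/- DOX. Col18a1, the source of endostatin, was listed at 2.10, 2.97 and 2.11 FPKM in saline, 7.31, 7.77 and 7.25 in WT DOX, and 31.5, 33.3 and 30.1 in Sting-/- DOX. Groups did not overlap for either gene, and the log2 fold changes were 0.58 ± 0.061 and 1.56 ± 0.061 for Col15a1 and 1.32 ± 0.089 and 1.95 ± 0.089 for Col18a1. The transmembrane chains were all low and none reached the filter. Col13a1 had the highest mean of them over all 9 libraries, at 0.31, 0.56 and 0.42 FPKM in saline, 0.28, 0.19 and 0.34 in WT DOX, and 0.88, 1.21 and 1.27 in Sting-/- DOX. Col23a1 averaged 0.457, 0.440 and 0.733 FPKM, above Col13a1 in both WT groups, and Col17a1 and Col25a1 stayed at or below 0.13 in every library. Col26a1 averaged 0.337, 0.440 and 0.833.

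Cartilage-type chains were near 0 in WT hearts and present in Sting-/- DOX. Col11a1, a fibrillar chain that copolymerises with type II collagen, was listed at 0.02, 0.07 and 0 FPKM in saline, 0.06, 0.13 and 0.11 in WT DOX, and 41.8, 37.4 and 39.6 in Sting-/- DOX. Its log2 differences were 0.09 between WT DOX and saline and 5.21 between the DOX groups, given without a test because it too passed the filter only through the Sting-/- libraries. Col2a1, the main chain of cartilage fibrils, was listed at 0, 0 and 0.02 FPKM in saline, 0.06, 0 and 0.02 in WT DOX, and 4.09, 3.99 and 3.66 in Sting-/- DOX. In both genes the 3 Sting-/- libraries stood apart from all 6 WT libraries.

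Col9a2, a FACIT chain of cartilage fibrils, was listed at 0.16, 0 and 0.13 FPKM in saline, 0.11, 0.14 and 0.17 in WT DOX, and 6.35, 5.07 and 5.94 in Sting-/- DOX. Col11a2 was listed at 0.63, 0.74 and 0.51 FPKM in saline, 0.53, 0.48 and 0.56 in WT DOX, and 2.98, 2.75 and 2.89 in Sting-/- DOX. Below the filter, Col9a3 averaged 0.237, 0.230 and 1.33 FPKM and Col10a1, a marker of hypertrophic cartilage, 0.0200, 0.0100 and 0.287. Col10a1 overlaps Nt5dc1 and Col9a3 overlaps Tcfl5, so these low values are uncertain. As a group the 6 genes summed to 0.95 to 1.10 FPKM in saline, 0.94 to 1.10 for WT DOX, and 50.6 to 57.1 for Sting-/- DOX, and Col11a1 made up most of that sum. Of 9 measured chondrocyte markers, Comp averaged 0.710, 0.590 and 98.8 FPKM, Sox9 0.393, 1.23 and 11, and Acan 0.0233, 0.0100 and 4.86, while Matn1 and Hapln1 were below 0.5 FPKM in every library. Sox6 averaged 3.09, 2.09 and 0.917 FPKM and was called lower in all 3 comparisons (-0.40, -0.69 and -1.10), and Cnmd, below the filter, averaged 0.617, 0.207 and 0.443 FPKM. The other members, Sox5 and Epyc, averaged 0.280, 0.373 and 0.717 FPKM and 0.0333, 0.0900 and 0.770 FPKM. Acan and Comp passed the filter only through the Sting-/- libraries. The summed chondrocyte list was 5.01 to 5.40, 4.55 to 4.75 and 115.7 to 121.2 FPKM, and the tendon list 3.72 to 5.10, 10.6 to 12.4 and 137.3 to 151.0. In the tendon list Thbs4 averaged 1.49, 5.41 and 53.7 FPKM and Scx 2.46, 5.37 and 17.7. Fmod averaged 0.523, 0.387 and 70.6 FPKM and passed the filter only through the Sting-/- libraries, and Mkx averaged 0.09, 0.0233 and 0.347. Mesothelial markers summed to 4.37 to 6.61 FPKM in saline, 6.47 to 9.04 for WT DOX, and 100.3 to 104.3 for Sting-/- DOX. Of 7 tested, Krt19 (1.66) and Krt8 (0.69) were called higher and Msln (-0.59) and Upk3b (-0.79) lower between WT DOX and saline. The background there was 45.3% higher and 21.5% lower. Upk1b, Msln, Krt8 and Lrrn4 passed the filter only through the Sting-/- libraries. Krt19 averaged 0.343 FPKM in saline and passed only through the DOX groups, so the filter favoured its higher call. The part of these lists in the cartilage-type values was not tested.

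Ratios between collagen genes, of the same type or of different types, also differed between the groups. The ratio of Col3a1 to Col1a1 was 2.82, 2.81 and 2.83 in saline, 2.18, 2.31 and 2.26 in WT DOX, and 0.881, 0.894 and 0.869 in Sting-/- DOX. The ratio of Col1a1 to Col1a2 was 0.589, 0.597 and 0.576 in saline, 0.903, 0.882 and 0.866 in WT DOX, and 1.36, 1.35 and 1.36 in Sting-/- DOX. For both ratios no group overlapped another, and the exact permutation p was 0.1 in each of the 3 comparisons, the smallest possible. The ratio of Col4a1 to Col4a2 was nearly level by comparison, at 1.41 ± 0.0634, 1.42 ± 0.0511 and 1.55 ± 0.0252 (SD, n = 3 each). Its exact permutation p was 0.8 between WT DOX and saline and 0.1 in both other comparisons.

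Other chain pairs are given without a test. Col6a3 to Col6a1 was 0.157 ± 0.00232 in saline, 0.349 ± 0.0081 in WT DOX and 0.154 ± 0.00634 in Sting-/- DOX, so WT DOX alone stood apart. Col5a1 to Col5a2 was 1.01 ± 0.0479, 0.617 ± 0.0556 and 0.562 ± 0.0126, and the Sting-/- libraries overlapped the WT DOX ones. Col8a2 to Col8a1 was 0.0170, 0.00529 and 0.308. Col6a1 to Col6a2 was 0.971 ± 0.061, 0.892 ± 0.0505 and 1.13 ± 0.0386, between 0.861 and 1.16 in every library, and each Sting-/- library lay above every WT library.

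**Figure D4:**
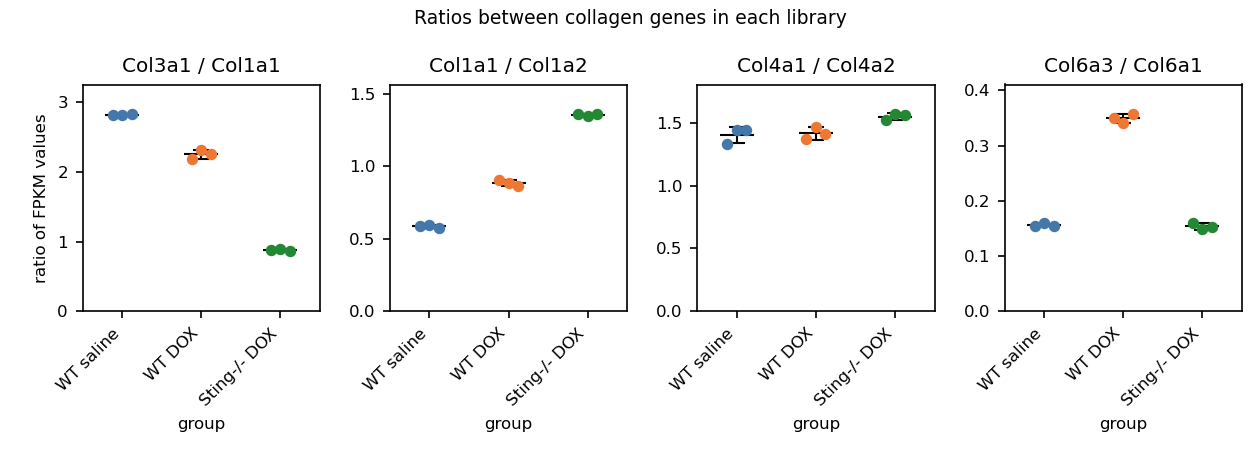
Ratio of FPKM values (y axis) of 4 collagen pairs in the 3 groups (x axis). Points are libraries, bars the mean and SD of 3 libraries. Groups do not overlap for Col3a1 to Col1a1 and Col1a1 to Col1a2, and WT DOX stands above both other groups for Col6a3 to Col6a1.

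Genes that modify, cleave, cross-link, bind and degrade collagen were examined as 5 lists. The background beside each count is the percent of all genes tested that were called the same way. Of 23 genes for chain hydroxylation, folding and export in the endoplasmic reticulum, 15 were called higher and 2 lower between WT DOX and saline (median 0.67, background 45.3% and 21.5%). In Sting-/- DOX against WT DOX 19 were higher and 2 lower (median 1.0, background 54.1% and 29.7%). Creb3l1, a transcription factor of collagen secretion, had log2 fold changes of 1.88 ± 0.086 and 1.52 ± 0.086, the collagen chaperone Serpinh1 1.27 ± 0.048 and 1.59 ± 0.048, and the prolyl hydroxylase P4ha3 1.18 ± 0.077 and 2.88 ± 0.077. P4ha3 averaged 0.05 FPKM in saline and passed the filter only through the DOX groups, so the filter favoured its higher call against saline. P3h3 (2.0) and the lysyl hydroxylase Plod2 (1.67) were among the largest between the DOX groups. The genes called lower were Mia2 (-0.23) and Colgalt2 (-0.66) between WT DOX and saline, and Mia2 (-0.24) and Tmem38b (-0.69) between the DOX groups.

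Of the 10 genes for propeptide cleavage and fibril assembly, 8 were tested, of which 7 were called higher in WT DOX than saline (median 0.96, background 45.3%). Between the DOX groups 6 were higher (background 54.1%), of which Adamts14 passed the filter only through the Sting-/- libraries, and 1 was lower, Pcolce2 at -0.18 ± 0.068 (limma adjusted p = 0.0252). Fn1, the fibronectin scaffold for collagen fibrils, had log2 fold changes of 3.01 ± 0.071 and 2.80 ± 0.071, Sparc 1.23 ± 0.062 and 2.82 ± 0.062, and the procollagen peptidase Adamts2 1.09 ± 0.051 and 2.18 ± 0.051. Pcolce2 was called higher between WT DOX and saline at 0.27, but not after quantile normalization or median-ratio scaling (0.04 under both). Its call between the DOX groups was lost with TPM scaling and when any of 4 libraries was left out, WT DOX 2 or 3 or Sting-/- DOX 1 or 3 (-0.13 to -0.18). All 5 cross-linking enzymes were called higher in WT DOX than saline (median 1.91, background 45.3%), led by Lox at 4.12 ± 0.080. Of these, Loxl4 averaged 0.347 FPKM in saline and passed the filter only through the DOX groups, so the filter favoured its call. With Sting-/- DOX against WT DOX, Lox (2.95), Loxl3 (2.5), Loxl1 (2.02) and Loxl2 (0.40) were higher, while Loxl4 was lower at -0.25 ± 0.097 (limma adjusted p = 0.0327). The Loxl4 call was lost with a pseudocount of 0.1, with TPM scaling and without WT DOX 1 or 2 or Sting-/- DOX 1 or 3, and the Loxl2 call with median-ratio scaling (0.06).

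Of the 8 collagen receptors tested, 6 were called higher in WT DOX than saline and 0 lower, also at an unadjusted p under 0.05 in limma (median 0.64, background 45.3% and 21.5%), led by Lair1, an inhibitory receptor of leukocytes, at 2.18 ± 0.080. Of these 6, Itga11 averaged 0.643 FPKM in saline and passed the filter only through the DOX groups, so the filter favoured its call. Against WT DOX, Sting-/- DOX had 5 higher and 2 lower (median 0.64), shares near the background of 54.1% and 29.7%. Itga11, the integrin subunit for type I collagen on fibroblasts, had 2.55 ± 0.079, Mrc2, which takes up collagen fragments, 1.89 ± 0.059 and Itga10, which passed the filter only through the Sting-/- libraries, 1.85. Lair1 fell by 0.68 on the log2 scale and Ddr1 by 0.21, and the Ddr1 call was lost without the filter, with TPM scaling, with the replicate block and without WT DOX 1 or 2 or Sting-/- DOX 1.

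The 9 genes of collagen degradation moved in both directions, beside a background of 45.3% called higher and 21.5% lower between WT DOX and saline. Between WT DOX and saline 6 were called higher (Timp1 6.36 ± 0.112, Mmp9 3.26 ± 0.099 and Mmp8 2.88 ± 0.087 the largest) and 3 lower (Timp3 -0.38, Mmp2 -0.18 and Timp2 -0.13). The Timp2 call was lost without a variance trend or without saline 1 or 3 or any 1 of the WT DOX libraries. Between the DOX groups Mmp2, a gelatinase made by fibroblasts, was higher by 3.30 ± 0.050, as were Ctsk (2.24) and Mmp14 (2.23). The inhibitors Timp2 (2.06) and Timp3 (1.86) were higher too. Mmp9 (-2.07), Mmp8 (-1.98), Mmp13 (-1.53) and the inhibitor Timp1 (-0.34) were lower, so 5 were higher and 4 lower beside a background of 54.1% and 29.7%, and the Timp1 call was lost with a pseudocount of 0.1, with TPM scaling and with quantile normalization (0.00). Mmp8 and Mmp9 are known from neutrophils, and Mmp8 averaged 0.0367 FPKM in saline, 6.66 in WT DOX and 0.943 in Sting-/- DOX. Mmp13 averaged 0.82, 3.48 and 0.55 FPKM in the same order. Mmp8 and Mmp13 thus passed the filter only through the WT DOX libraries. The filter therefore favoured their higher calls against saline and their lower calls between the DOX groups. Mmp9 averaged 0.15 FPKM in saline and passed only through the DOX groups, so the filter favoured its higher call.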

How the data were processed

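RNA-seq libraries of mouse heart, 3 per group, were grouped by the titles. RNA extraction used a QIAGEN kit and library preparation an MGI one, per the labels' protocols. The authors deposited 1 table per library, with gene IDs and FPKM values. FPKM is relative to the library's own total, so abundant genes shift all others. The submitters' processing notes name HISAT2 2.0.4, Bowtie2 2.2.5, RSEM 1.2.12 and GRCm39, with no role or order; strand use is not given in the sources used here.

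Gene IDs were matched to symbols in a RefSeq table of GRCm38.p6 (16825 matched, 48 did not), which also gave gene neighbours. Fold changes and adjusted p come from limma 3.58.1 (R 4.3.3) on log2(FPKM + 1), with a trended variance prior, all 9 libraries in 1 fit (6 residual degrees of freedom), a filter of mean 1 FPKM or more (12485 of 16873 genes), two-sided and Benjamini-Hochberg adjusted over those genes, at a threshold of 0.05. The fit was tested on simulated data. Shares and ratios of FPKM were computed per library and compared by exact two-sided permutation tests, which for 3 against 3 cannot go below p = 0.1. Depth was estimated from the steps of low values in 1274 genes; 49.1% to 61.6% of values lay within 0.1 reads of a whole number, so no counts were recovered and no count model was used.

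The members and gene lists were chosen with earlier results of these data known. Every collagen gene is accounted for. Values in every library are given for up to 4 genes of highest mean in each class, the cartilage types and the 3 largest changes. Of each pathway list, up to 3 called genes with the largest change are named, with those that went the other way. Loxl2, and in some comparisons Loxl4, Mmp13, Timp2 and Timp3, were named in addition, after their values were seen. Alternatives tried were the pseudocount, the filter, 3 scalings, the samples in the fit, the variance trend, a replicate block and leaving out each library.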

Additional observations from a re-analysis of the deposited data

How the results depend on the processing

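The 78 collagen gene results (26 genes in 3 comparisons) were recomputed under 18 other settings, and 1380 of the 1404 values could be computed. A mean of at least 5 FPKM left out 6 genes, and Col2a1 fell under the filter, and so lost its calls, without Sting-/- DOX replicate 1 or 2. Where a value could be computed, 7 results changed call or direction, 0 of them on leaving out 1 library. The number of collagens called lower between WT DOX and saline, 1 as reported, was 4 without a filter, 0 with a mean of at least 5 FPKM, 2 with TPM scaling, median-ratio scaling or no variance trend, and 3 with quantile normalization. Between the DOX groups it was 1 with median-ratio scaling or quantile normalization, and between Sting-/- DOX and saline 1 with these or without a filter. Between Sting-/- DOX and saline, the log2 fold change of Col4a4 turned to -0.26 (median-ratio) and -0.51 (quantile), and that of Col4a5 to -0.09 and -0.01. Col4a5 was called higher there as reported (0.46), and this call was lost under both scalings. The collagen share without the 10 most abundant other genes was 0.0780% in saline, 0.212% in WT DOX and 1.36% in Sting-/- DOX, and 0.0745% in saline and 1.34% in Sting-/- DOX after quantile normalization. Quantile normalization gave Col3a1 to Col1a1 ratios of 2.67 in saline and 2.12 in WT DOX, and Col1a1 to Col1a2 ratios of 0.607 in saline and 1.51 in Sting-/- DOX. The cause of these changes was not tested beyond the scaling itself. Without the filter 36 collagens were called higher between the DOX groups (25 as reported, 19 with a mean of at least 5 FPKM); fewer genes are tested under a stricter filter. Of the remaining collagen calls, Col11a1 passed between WT DOX and saline only with a pseudocount of 0.1 (0.64), and Col11a2 only with quantile normalization (-0.32). Col20a1 passed there with median-ratio scaling (-0.30), quantile normalization (-0.43) and no variance trend (-0.17), and was no longer called between Sting-/- DOX and saline with quantile normalization (0.03).

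With a replicate block, 19 collagens were higher and 1 lower between WT DOX and saline, and 25 higher and 0 lower in both other comparisons, as without it; no collagen call changed. Libraries with the same number correlated at -0.032 to 0.104 in their deviations from the group means, and others at -0.066 to 0.035, so the numbers were not taken to pair the samples. Depth limits the low genes: Sting-/- DOX had the fewest fragments, and for genes near 0 FPKM a difference may not be detectable.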

Other observations

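Genes with collagen-like domains that the symbol rule leaves out were listed after their values were seen, and are given as values without a test. Cthrc1, a secreted protein of activated fibroblasts, averaged 0.367 ± 0.107 FPKM in saline, 17.6 ± 1.65 in WT DOX and 344.7 ± 14.1 in Sting-/- DOX (SD, n = 3 each). C1qtnf3, of the C1q and tumour necrosis factor related family, was listed at 0.08, 0.19 and 0.15 FPKM in saline, 0.06, 0.16 and 0.43 in WT DOX, and 73.3, 63.3 and 66.7 in Sting-/- DOX. Its 6 WT libraries were all below 0.5 FPKM. C1qtnf6 averaged 6.91, 19.4 and 114.9 FPKM.

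C1qa, C1qb and C1qc, the collagen-like chains of complement C1q made by macrophages, averaged 103.8, 98.0 and 76.8 FPKM in saline, 212.7, 256.8 and 162.1 in WT DOX, and 574.9, 617.0 and 369.4 in Sting-/- DOX. C1qtnf9, made in the heart, was lower in WT DOX than in saline and highest in Sting-/- DOX, at 30.3 ± 0.930, 14.4 ± 0.456 and 95.9 ± 3.21 FPKM, with no overlap between groups. Colq, which anchors acetylcholinesterase at synapses, was also lower in WT DOX than in saline, but lowest in Sting-/- DOX. Its means were 6.89 ± 0.340, 5.23 ± 0.801 and 4.26 ± 0.159 FPKM. The members of this list therefore did not share 1 pattern across the groups. Imprinted growth genes, of which Igf2 averaged 8.83, 13.1 and 74.2 FPKM, summed to 15.9 to 17.7 FPKM in saline, 26.1 to 28.0 for WT DOX, and 137.0 to 141.2 for Sting-/- DOX. Macrophage markers summed to 323.9 to 368.3, 1007 to 1141 and 1960 to 2028 FPKM, of which Lyz2 averaged 192.3, 684.6 and 1201.6. Between the DOX groups 5 of these 6 markers were called higher and 1, Mrc1 (-0.41), lower. The median of the 6 was 0.43, and the background 54.1% higher and 29.7% lower.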
